A study of Mus musculus with 12 samples.

Results

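Mouse colon tumours with 5 edited genes were compared with tumours carrying edits of Braf and Tgfbr2 alone. The comparison used 8 of the 12 libraries of the series, chosen by their titles: the 4 named BTPRZ-T and the 4 named BT-T, with no other library in the fit. The study modelled serrated colon carcinoma by editing the genes of colonic organoids (epithelial cultures grown from colon) and growing them as tumours in the mouse colon. RNA of whole tumours was sequenced from a stranded poly(A) library, and every group was of the immunodeficient NSG strain, a host that lacks mature T, B and NK cells. Both tumour groups carried BrafV600E, an activating change of the BRAF kinase, and loss of Tgfbr2, the type II TGF-beta receptor. The BTPRZ-T group carried in addition the loss of Rnf43 and Znrf3 and the loss of p16 Ink4a, so the contrast measures those 3 losses together and cannot assign a difference to one of them. The remaining 4 libraries were adjacent normal colon of wild type genotype, whose levels are given as background where they help. Nothing in the labels tells if a group's libraries are separate mice or separate organoid lines, so p-values measure the spread between these libraries.

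RNF43 and ZNRF3 are transmembrane ubiquitin ligases that remove Frizzled receptors from the cell surface, and R-spondins bound to LGR receptors block them. Their loss leaves more WNT receptor at the membrane and makes crypt cells more sensitive to WNT ligands. p16 Ink4a, made from Cdkn2a, inhibits the cyclin D kinases CDK4 and CDK6 and holds cells in senescence after oncogenic BRAF signalling. In serrated tumours, BRAF activation is followed by loss of such brakes, and the lesions often carry gastric and secretory features.

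Reads assigned to genes numbered 18811457 to 26052772 per library for BT-T and 15732004 to 21160052 for BTPRZ-T. Levels are given as CPM, the reads of a gene scaled to the same library size. The groups also differed in composition. Ribosomal protein transcripts made up 1.87% to 2.74% of gene reads in BT-T, against 3.65% to 9.10% in BTPRZ-T. Genes with at least 1 read numbered 16738 to 17266 in BT-T, against 13450 to 16438 in BTPRZ-T, with the lowest numbers in BTPRZ-T 4 (13450) and BTPRZ-T 1 (14697). The slope of log2 level on log2 transcript length ran from 0.43 to 0.67 in BT-T, against -0.11 to 0.46 in BTPRZ-T, so short transcripts took a larger share in BTPRZ-T. Ddx3y, a transcript of the Y chromosome, had 42.7 to 52.4 CPM in BT-T 2, 3 and 4 and 13.3 CPM in BTPRZ-T 2, against at most 0.115 CPM in the other 4 tumours, although all 8 tumours also held Xist. Correlations of log2 CPM over 14512 genes ran from 0.965 to 0.980 within BT-T and from 0.828 to 0.968 within BTPRZ-T. The part of these differences in the results was not tested except where a value with the length trend removed, or without BTPRZ-T 1 and 4, is given.

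**Figure D1:**
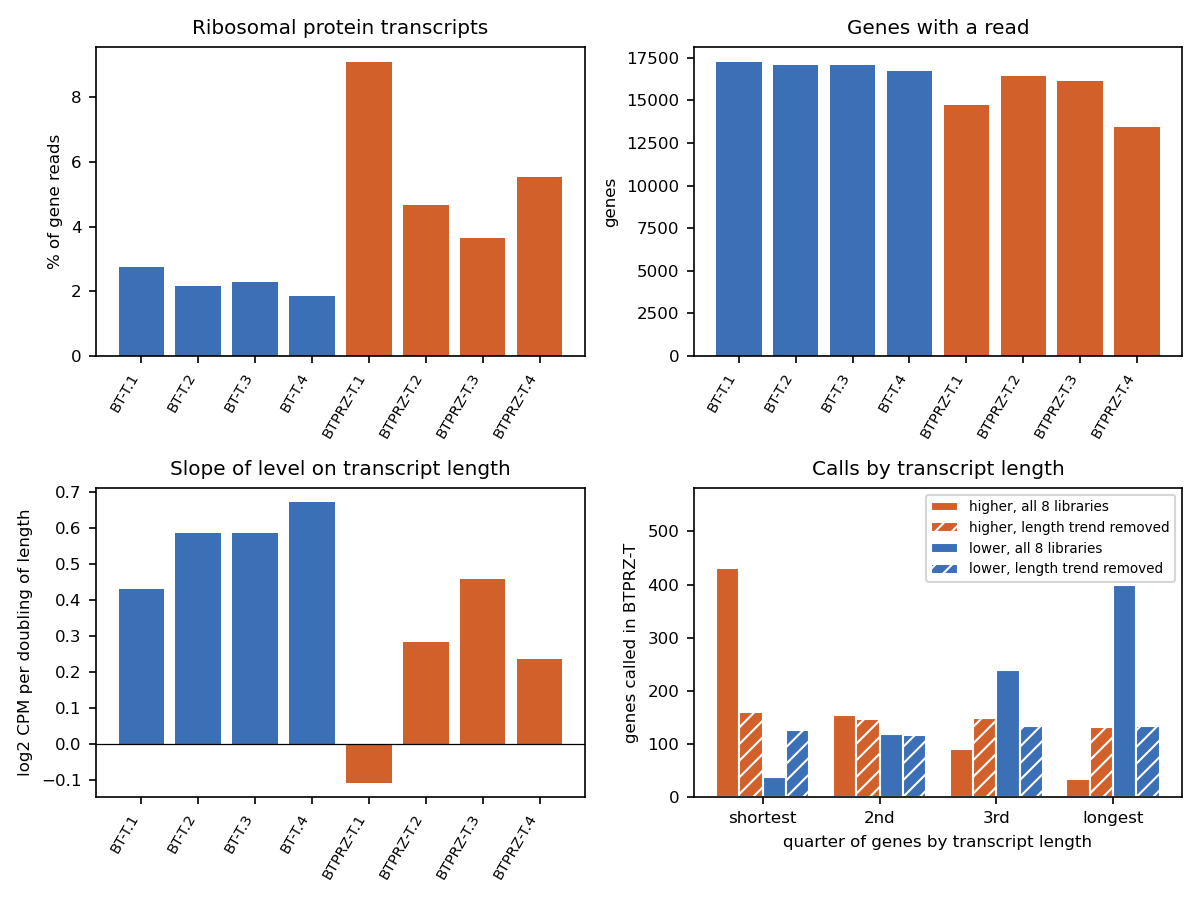
Composition of the 8 tumour libraries: percent of gene reads from ribosomal protein genes, number of genes with a read, slope of log2 CPM per doubling of transcript length (bars, 1 per library, BT-T blue and BTPRZ-T orange), and number of genes called in each of 4 bins of transcript length with and without removal of each library's length trend. Every BTPRZ-T library lies above 3.6% ribosomal transcripts and every BT-T library below 2.8%, and the excess of rises among the shortest genes (431 against 37 falls) becomes 159 against 126 once the trend is removed.

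Of 24054 genes in the files, 14512 passed the filter on low counts and 1568 differed at an adjusted p under 0.05 in edgeR's quasi-likelihood test, which is 10.8% of those tested. Higher levels in BTPRZ-T were called for 751 genes (5.18%) and lower levels for 817 (5.63%), shares that serve as background for each list described further on. A change of at least 2-fold was fitted for 437 of the genes that rose and 621 of those that fell. The median log2 fold change over all genes tested was -0.08, with quartiles of -0.54 and 0.36. Groups of 4 did not overlap for 24.4% of the genes tested, 10.8% higher and 13.7% lower in BTPRZ-T. The calls followed transcript length. With genes split by transcript length into 4 bins, 12.4% rose and 1.07% fell in the bin of shortest transcripts, and in the bin of longest 0.98% rose and 11.5% fell. With each library's length trend removed, 1152 genes were called (622 higher, 530 lower), 881 of them among the 1568. A fit without BTPRZ-T 1 and 4, which left BTPRZ-T 2 and 3 alone in that group, called 3721 of 14975 genes tested. Of these, 1352 were higher and 2369 lower, and 1380 were among the 1568. List counts of each fit are to be read against these numbers. All 3 fits called 807 genes (394 higher, 413 lower).

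The 12 largest rises were led by Ido1, Ang4 and Lgals2. Ido1, the enzyme that breaks down tryptophan to kynurenine, stood at 0.254, 0.161, 3.61 and 0.445 CPM in BT-T 1 to 4 and at 27.0, 11, 18.3 and 84.2 CPM in BTPRZ-T 1 to 4. The groups did not overlap, and the fitted log2 fold change was 4.96 ± 1.06 (SE, n = 4 per group, edgeR adjusted p = 0.0248). Chit1, a chitinase of macrophages and epithelium, rose by 3.80 ± 0.86 on the log2 scale and Lgals2, a galectin, by 3.90 ± 0.89. Lgals2 stood at 1.63, 1.29, 15.7 and 2.00 CPM in BT-T and at 139, 60.1, 84.3 and 26.5 CPM in BTPRZ-T, so BT-T 3 was closest to the other group. Serpinb9b, a protease inhibitor, rose by 3.43 ± 0.68, the dynein heavy chain gene Dnah2 by 3.27 ± 0.56 and Myl7, an atrial myosin light chain, by 3.11 ± 0.60. Once the length trend was removed, Lgals2 (adjusted p = 0.0730) and Myl7 (0.0537) were not called, whereas Ido1, Chit1, Serpinb9b and Dnah2 were. The other 6 of the 12 largest rises, Ang4, Cck, Retnlb, Gkn3, Aqp5 and Pla2g2a, belong to the epithelial groups described further on.

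The 12 largest falls were led by Nos1, Amph and Astn1. Nos1, the neuronal nitric oxide synthase of enteric motor neurons, had 583 reads over the 4 BT-T libraries and 1 read over the 4 BTPRZ-T libraries, a ratio of 504 once scaled for depth (95% counting interval 90.1 to 19900). In BT-T it stood at 3.23, 9.07, 3.11 and 14.3 CPM, and its 1 read in BTPRZ-T was in replicate 2. Amph, a synaptic vesicle protein that is also present in other cells, stood at 9.0, 15.8, 20.8 and 31.8 CPM in BT-T and at 0.13, 0.0999, 0 and 0 CPM in BTPRZ-T (log2 fold change -8.32 ± 0.77, adjusted p = 0.00518). Nat8l, the enzyme that makes N-acetylaspartate, stood at 31.5, 69.9, 48.2 and 92.1 CPM in BT-T and at 1.04, 2.30, 0.577 and 0.823 CPM in BTPRZ-T, and it fell by 5.66 ± 0.52. Neither gene's groups came near each other. The remaining 9 of the 12 largest falls were Astn1, Kcna2, Syt4, Pirt, Vat1l, Cmah, Kcnn3, Peli3 and Trim9, and their log2 fold changes ran from -4.35 (Trim9) to -7.35 (Astn1). Astn1 had 446 reads in BT-T, against 2 in BTPRZ-T, a ratio of 193 (interval 53 to 1600). Kcna2 and Kcnn3 encode potassium channels, Syt4 a synaptotagmin of vesicle release, and Pirt a regulator of sensory neuron channels. Cmah, which makes the sialic acid Neu5Gc, stood at 16.2 to 97.9 CPM in BT-T, against 0.977 to 2.90 CPM in BTPRZ-T, and normal colon held 58.6 to 181 CPM. In normal colon 1 to 4, Nos1 stood at 4.55, 0.136, 33.0 and 16.9 CPM and Amph at 4.95, 0.204, 4.44 and 3.73 CPM. Astn1 (0 CPM), Kcna2 (0.0679), Pirt (0.0679), Peli3 (0.0679) and Trim9 (0) were also low in normal colon 2, while Syt4 (9.16) was not. Normal colon 2 had a length slope of -0.41 and 10.99% ribosomal protein transcripts. The part of library composition in these falls was not tested.

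The edited genes were read in every library, and whole-gene counts do not show an edit that leaves the transcript in place. Braf (chr6:39603237-39725463) stood at 47.6, 66.5, 56.7 and 60.6 CPM in BT-T and at 23.2, 33.1, 59.8 and 14.8 CPM in BTPRZ-T, a log2 difference of -0.82 ± 0.37 that did not pass (adjusted p = 0.17). Tgfbr2 (chr9:116084293-116175360), edited in both groups, stood at 327, 472, 434 and 579 CPM in BT-T and at 150, 195, 201 and 284 CPM in BTPRZ-T. The groups did not overlap, Tgfbr2 fell by 1.13 ± 0.24 (adjusted p = 0.0263), and normal colon held 71.3 to 282 CPM. With the length trend removed, the Tgfbr2 difference was -0.54 (adjusted p = 0.151). Since whole tumours were read, a lower level can be fewer cells that hold a transcript or less transcript per cell, and these cannot be told apart here or in any group described further on.

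Rnf43 (chr11:87662722-87735539), one of the 3 genes lost in BTPRZ-T alone, was higher there. It stood at 59.3, 66.0, 94.5 and 68.1 CPM in BT-T and at 83.7, 143, 202 and 178 CPM in BTPRZ-T. BTPRZ-T 1 lay below BT-T 3, so the groups overlapped, and the fitted rise was 1.07 ± 0.27 (adjusted p = 0.0396), or 1.27 with the length trend removed (adjusted p = 0.0202). Znrf3 (chr11:5276324-5444847) stood at 20.5 to 33.5 CPM in BT-T, against 16.9 to 39.1 CPM in BTPRZ-T, a log2 difference of 0.09 ± 0.27 (adjusted p = 0.837). Cdkn2a (chr4:89274471-89294653), whose transcripts encode p16 Ink4a and, from another first exon, Arf, stood at 9.11, 11.8, 17.1 and 9.02 CPM in BT-T and at 31.7, 20.8, 26.8 and 19.7 CPM in BTPRZ-T. The groups did not overlap, the fitted rise was 1.07 ± 0.27 (adjusted p = 0.0388), and normal colon held 0.228 to 0.351 CPM. After removal of the length trend, the Cdkn2a difference was 0.41 (adjusted p = 0.422). Gene counts cannot separate the p16 Ink4a and Arf transcripts. Positions are those of GRCm38 in the GENCODE annotation.

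The WNT pathway did not move in one direction. Of 22 tested R-spondins, WNT receptors and their ligases, 1 rose (Rnf43) and 6 fell, against 5.18% and 5.63% of all genes tested, and the median log2 fold change was -0.41. The 6 were the Frizzled receptors Fzd1, Fzd4, Fzd7 and Fzd8, the WNT5A receptor Ror1 and the R-spondin receptor Lgr4. Fzd1 stood at 150, 219, 238 and 238 CPM in BT-T and at 81.0, 113, 93.3 and 133 CPM in BTPRZ-T, and it fell by 1.01 ± 0.22 (adjusted p = 0.0250). Fzd7 stood at 37.2, 44.3, 40.3 and 42.9 CPM in BT-T and at 21.7, 21.9, 21.3 and 27.2 CPM in BTPRZ-T. The Fzd7 groups lay well apart with little spread, and the fall was 0.84 ± 0.16. Ror1 fell by 1.70 ± 0.31 and Fzd8 by 1.74 ± 0.40, while Lgr4 fell by 0.72 ± 0.19 from 254 to 274 CPM in BT-T to 107 to 199 CPM in BTPRZ-T. With the length trend removed 2 of the 22 rose and 3 fell, and Fzd4, Fzd7 and Lgr4 were not called.

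Secreted WNT antagonists and WNT ligands included falls and no rise. Of 13 antagonists tested 3 fell, with a median of -1.03. Sfrp5 had 284 reads in BT-T, against 3 reads in BTPRZ-T, a ratio of 81.8 (interval 27.7 to 399). Dkk3, a secreted member of the Dickkopf family, stood at 112, 103, 113 and 121 CPM in BT-T and at 71.1, 46.9, 33.7 and 68.2 CPM in BTPRZ-T, and it fell by 1.03 ± 0.23 (adjusted p = 0.0297). Frzb fell by 1.49 ± 0.41. Of 10 WNT ligands tested, Wnt2b fell by 1.68 ± 0.33 and Wnt4 by 1.78 ± 0.46. Wnt10a, a ligand for canonical signalling, stood at 0, 0.0537, 1.22 and 0.0557 CPM in BT-T and at 5.73, 4.24, 1.79 and 22.2 CPM in BTPRZ-T. The Wnt10a groups did not overlap, but the difference did not pass (adjusted p = 0.0552), and the gene is named after its values were seen.

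WNT target genes were split. Of 25 tested, 1 rose (Rnf43) and 3 fell (Nkd1, Nkd2 and Prox1), with a median of 0.11; with the length trend removed 5 rose and none fell, with a median of 0.34. Nkd1, a feedback inhibitor of Dishevelled that serves as a marker of beta-catenin activity in intestine, stood at 24.8, 38.3, 25.4 and 42.9 CPM in BT-T and at 16.7, 7.44, 7.79 and 2.88 CPM in BTPRZ-T. The groups did not overlap and the fall was 1.92 ± 0.46 (adjusted p = 0.0352). Nkd2 fell by 1.61 ± 0.41. Axin2, the scaffold gene most often read as a WNT target, stood at 40.2, 39.2, 47.3 and 40.9 CPM in BT-T and at 40.5, 63.2, 61.4 and 82.6 CPM in BTPRZ-T. BTPRZ-T 1 lay among the BT-T libraries, and the difference of 0.56 ± 0.21 did not pass (adjusted p = 0.111). Sp5, a transcription factor induced by beta-catenin, stood at 0.944, 2.31, 2.62 and 1.11 CPM in BT-T and at 6.52, 6.44, 2.54 and 16.7 CPM in BTPRZ-T. Its difference was 2.2 ± 0.62 and its adjusted p 0.0518. Notum, which inactivates WNT proteins, differed by 1.29 ± 0.62 (adjusted p = 0.194) between levels of 0.612 to 1.62 CPM and 1.17 to 3.84 CPM. In the cytoplasmic and nuclear core of the pathway, 20 genes tested gave 1 rise and 1 fall (10%, against 10.8% of all genes tested). Tcf7l1, the repressive TCF, fell by 1.41 ± 0.27 and the co-repressor Tle1 rose by 0.78 ± 0.17.

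**Figure D2:**
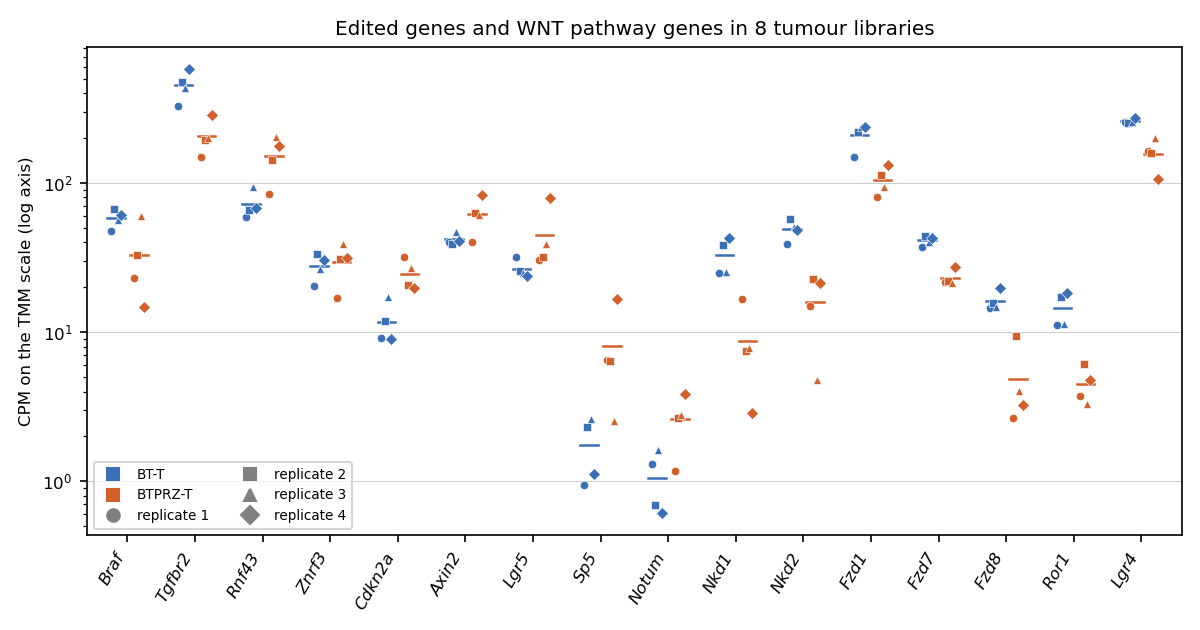
Levels of the edited genes and of WNT pathway genes in each of the 8 tumour libraries, in CPM on a log axis; colour gives the group, marker shape the replicate number and the horizontal bar the group mean. Rnf43 lies higher in most BTPRZ-T libraries and Fzd1, Fzd7, Fzd8, Ror1, Lgr4 and Nkd1 lie lower in all 4, while Axin2, Lgr5 and Znrf3 overlap between the groups.

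Crypt stem and progenitor markers gave 2 rises and 1 fall among 18 tested, with a median of 0.30. The summed level of the list was 2198 to 4191 CPM in BT-T, against 4997 to 7075 CPM in BTPRZ-T. Hopx, a marker of reserve stem cells, stood at 27.3, 24.0, 28.6 and 16.7 CPM in BT-T and at 79.9, 52.7, 52.6 and 72.1 CPM in BTPRZ-T, a rise of 1.41 ± 0.23 (adjusted p = 0.0137). Smoc2, a secreted protein of crypt base cells, rose by 0.76 ± 0.20, and Rgmb, a BMP co-receptor, fell by 0.85 ± 0.22. Lgr5, the receptor that marks crypt base stem cells, stood at 23.8 to 32.1 CPM in BT-T, against 30.4, 31.8, 38.8 and 78.8 CPM in BTPRZ-T (adjusted p = 0.137). Ascl2, a transcription factor of the same cells, stood at 3.83 to 6.4 CPM and 1.27 to 9.87 CPM (adjusted p = 0.908).

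Among INK4, CIP and cyclin genes, Cdkn2a rose and Cdkn1c fell, out of 23 tested (8.7% called, against 10.8% of all genes tested). Cdkn1c, which encodes the CDK inhibitor p57, stood at 11.7, 19.3, 13.4 and 36.3 CPM in BT-T and at 3.58, 2.65, 3.11 and 5.90 CPM in BTPRZ-T, and it fell by 2.4 ± 0.43 (adjusted p = 0.0178). Cdkn2b, the neighbour of Cdkn2a that encodes p15, differed by -0.06 ± 0.26, and Cdkn1a, the p21 gene, by -0.12 ± 0.18; both overlapped between the groups. DNA replication genes gave 5 rises and no fall among 30 tested, with a median of 0.65: Gins2, Tk1, Pcna, Mcm5 and Mcm7, which encode parts of the replication fork and its nucleotide supply. Tk1 stood at 16.7, 15.6, 20.4 and 11.2 CPM in BT-T and at 54.6, 32.2, 21.5 and 60.3 CPM in BTPRZ-T, a rise of 1.40 ± 0.34 (adjusted p = 0.0348). BTPRZ-T 3 was close to BT-T. Without BTPRZ-T 1 and 4, Gins2 (0.89), Tk1 (0.79) and Mcm5 (0.75) had smaller log2 changes and were not called (adjusted p = 0.0635 to 0.0694). Mki67, the proliferation antigen, stood at 190 to 273 CPM in BT-T, against 94.8 to 227 CPM in BTPRZ-T (log2 difference -0.28 ± 0.27, adjusted p = 0.516), while 27 of the 30 had a positive fitted change. Of 25 p53 targets and senescence genes, Bax, the pro-apoptotic BCL2 family member, rose by 1.06 ± 0.20. No other was called (4%, against 10.8% of all genes tested).

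Genes that report RAS-ERK signalling, which BrafV600E drives in both groups, gave 2 rises and 2 falls among 28 tested, with a median of -0.01. Their summed level, which weighs highly expressed genes most, did not overlap (1629 to 2531 CPM in BT-T, 3509 to 4297 CPM in BTPRZ-T). The ETS factor Etv4 stood at 39.4, 50.6, 65.9 and 42.0 CPM in BT-T and at 86.1, 94.7, 91.6 and 94.1 CPM in BTPRZ-T, a rise of 0.89 ± 0.18 (adjusted p = 0.0237). Phlda1 rose by 0.94 ± 0.23. The feedback inhibitors Spred1 and Spry2 fell by 0.85 ± 0.17 and 0.77 ± 0.20. Dusp6, the ERK phosphatase, stood at 95.5 to 146 CPM and 99.7 to 207 CPM (adjusted p = 0.386). Among 24 AP-1 and immediate early genes, Fosl2 fell by 0.73 ± 0.20 and no other was called (4.17%, against 10.8% of all genes tested). None of 14 EGF family ligands and ERBB receptors was called.

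TGF-beta pathway genes had lower fitted levels in BTPRZ-T although the receptor Tgfbr2 was edited in both groups. All 18 ligands, receptors and SMADs tested had a negative fitted change, 6 were called and the median was -0.94. Ltbp1, which stores latent TGF-beta in the matrix, stood at 86.4, 147, 147 and 118 CPM in BT-T and at 35.2, 58.9, 37.1 and 42.4 CPM in BTPRZ-T, and it fell by 1.52 ± 0.23 (adjusted p = 0.0122). Smad4, the common SMAD that carries TGF-beta and BMP signals to the nucleus, stood at 207, 208, 179 and 242 CPM in BT-T and at 127, 91.6, 86.6 and 97.5 CPM in BTPRZ-T, and it fell by 1.06 ± 0.18 (adjusted p = 0.0144). Neither gene's groups overlapped, and both remained called with the length trend removed (Smad4 -0.97, Ltbp1 -1.04). The ligand Tgfb2 fell by 1.36 ± 0.28, the type I receptor Tgfbr1 by 0.84 ± 0.19 and the co-receptor Tgfbr3 by 1.83 ± 0.50; these 3 and Tgfbr2 were not called with the length trend removed. Of 23 TGF-beta response genes 4 fell: the SMAD repressor Ski by 1.11 ± 0.23, Pmepa1 by 0.98 ± 0.20, the matrix gene Postn by 1.52 ± 0.41, and Col4a1.

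BMP and Notch genes were called at shares near the 10.8% of all genes tested: 12.5% of 24 BMP genes and 11.8% of 17 Notch genes. Of the 24 BMP genes 3 fell and none rose, with a median of -0.67, against 5.63% of all genes called lower. Among BMP genes, the type II receptor Bmpr2 fell by 1.5 ± 0.26 and the secreted BMP antagonist Chrdl1 fell by 3.20 ± 0.60. Chrdl1 stood at 26.9, 41.3, 22.4 and 49.5 CPM in BT-T and at 6.97, 5.84, 1.27 and 1.23 CPM in BTPRZ-T. Of 17 Notch genes, Hes6, a factor that promotes secretory and neuroendocrine differentiation, rose by 1.17 ± 0.19 from 29.7 to 42.3 CPM in BT-T to 62.2 to 90.0 CPM in BTPRZ-T, and the ligand Jag1 fell by 0.93 ± 0.20.

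Genes of secretory cells moved in both directions. Among 22 goblet cell genes 6 rose and 2 fell, with a median of -0.13, and 10 of the 22 fitted changes were positive. Spink4, a goblet cell peptide (chr4:40920052-40931395), stood at 422, 200, 302 and 156 CPM in BT-T and at 2203, 1102, 720 and 1249 CPM in BTPRZ-T, a rise of 2.29 ± 0.41 (adjusted p = 0.0179). Retnlb, the antibacterial resistin-like protein of goblet cells, stood at 19.8, 15.8, 98.1 and 8.18 CPM in BT-T and at 483, 430, 328 and 340 CPM in BTPRZ-T, a rise of 3.48 ± 0.72. Spdef, the transcription factor of goblet cell maturation, stood at 52.8, 26.4, 84.8 and 25.5 CPM in BT-T and at 175, 137, 168 and 160 CPM in BTPRZ-T, a rise of 1.76 ± 0.37. In each of these genes all 4 BTPRZ-T libraries lay above all 4 BT-T libraries, and BT-T 1 or 3 came closest. The angiogenin Ang4 rose by 4.31 ± 1.05, the lectin Itln1 by 2.76 ± 0.66 and Agr2, a disulfide isomerase needed to fold mucin, by 1.54 ± 0.35. Clca3, a secreted goblet cell protease, stood at 2687, 1398, 933 and 2460 CPM in BT-T and at 496, 531, 615 and 201 CPM in BTPRZ-T, and it fell by 2.02 ± 0.43, and Capn9 fell by 0.83 ± 0.23. Muc2, the main gel-forming mucin of colon, stood at 2018, 1810, 2904 and 1886 CPM in BT-T and at 2186, 4723, 9276 and 3990 CPM in BTPRZ-T; BTPRZ-T 1 lay among the BT-T values and the difference of 1.23 ± 0.40 did not pass (adjusted p = 0.0789). In the fit without the length trend, 2 goblet cell genes rose and 3 fell; Spink4 and Spdef were called, and Retnlb (log2 change 2.64), Ang4 (3.51), Itln1 (2.23) and Agr2 (0.83) were not (adjusted p = 0.0517 to 0.0713).

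Paneth cell and crypt defence genes gave 3 rises and 1 fall among 15 tested, with a median of 0.98. Cd177 (chr7:24743983-24760311), a surface protein of neutrophils that colon epithelium also expresses, stood at 20.2, 26.8, 35.0 and 25.8 CPM in BT-T and at 97.5, 151, 281 and 153 CPM in BTPRZ-T, a rise of 2.66 ± 0.33 (adjusted p = 0.00704). Pla2g2a, the antibacterial phospholipase of Paneth cells, stood at 17.9, 8.0, 26.1 and 7.40 CPM in BT-T and at 183, 108, 110 and 120 CPM in BTPRZ-T, a rise of 3.13 ± 0.43 (adjusted p = 0.00825). The groups of both genes lay far apart, and both genes were called in each of the 8 fits that left out 1 library. Lyz1, the Paneth cell lysozyme, stood at 1.49, 12.7, 14.3 and 2.56 CPM in BT-T and at 90.9, 46.9, 44.2 and 44.3 CPM in BTPRZ-T, a rise of 2.87 ± 0.68. Mptx1, a pentraxin, fell by 2.07 ± 0.58. Mmp7, the matrilysin that activates Paneth cell defensins, stood at 4.68, 2.42, 337 and 5.96 CPM in BT-T and at 2199, 1652, 1262 and 2354 CPM in BTPRZ-T. Its groups did not overlap, but BT-T 3 stood far above the other 3 and the adjusted p was 0.0885. Mmp7 is named after its values were seen.

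Gastric and serrated lesion markers gave 4 rises and no fall among 14 tested, with a median of 1.06. Of the 23 in the files, 9 did not pass the filter. Vsig1, a junction protein of stomach epithelium, stood at 26.6, 16.7, 51.9 and 33.0 CPM in BT-T and at 158, 120, 218 and 71.5 CPM in BTPRZ-T, a rise of 2.14 ± 0.41 (adjusted p = 0.0201). Aqp5, a water channel of pyloric glands, stood at 2.4, 3.70, 18.2 and 1.56 CPM in BT-T and at 114, 34.0, 24.2 and 57.5 CPM in BTPRZ-T, a rise of 3.15 ± 0.82. Gkn3, a gastrokine of the stomach, stood at 0.109, 0.537, 5.05 and 0.779 CPM in BT-T and at 25.5, 10.8, 9.11 and 26.7 CPM in BTPRZ-T, a rise of 3.47 ± 0.96 (adjusted p = 0.0488). Agr2 is also a member. In Aqp5 and Gkn3, BT-T 3 again came closest to the other group, and normal colon held at most 0.679 CPM of either. With the length trend removed, Vsig1 alone of the list was called, and without BTPRZ-T 1 and 4 Aqp5 (log2 change 2.21) and Gkn3 (2.65) were not (adjusted p = 0.0950 and 0.0986).

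Absorptive colonocyte genes gave 2 rises and 5 falls among 30 tested, with a median of -0.07. Car1, the carbonic anhydrase of colonocytes, stood at 435, 623, 241 and 1340 CPM in BT-T and at 199, 181, 176 and 156 CPM in BTPRZ-T, and it fell by 1.89 ± 0.45 (adjusted p = 0.0341). Slc26a3, the chloride-bicarbonate exchanger, stood at 307, 130, 74.4 and 257 CPM in BT-T and at 55.6, 62.3, 47.8 and 47.2 CPM in BTPRZ-T, and it fell by 1.85 ± 0.40. The water channel Aqp8 fell by 1.54 ± 0.37, the peptidase Dpp4 by 1.63 ± 0.40 and the metalloprotease Mep1a by 1.30 ± 0.35. In the opposite direction, Fabp2, the intestinal fatty acid binding protein, stood at 3.52, 2.47, 1.62 and 1.73 CPM in BT-T and at 17.1, 15.3, 23 and 4.07 CPM in BTPRZ-T, a rise of 2.66 ± 0.52. The sodium-proton exchanger Slc9a3 rose by 2.49 ± 0.65. Of 32 tested without BTPRZ-T 1 and 4, 10 genes of the list were called higher and 5 lower, with a median of -0.22. Over all 14975 genes of that fit, 1352 were called higher and 2369 lower. That fit leaves out BTPRZ-T 4, which had the lowest list median (-0.921, against -0.124 to -0.205 in BTPRZ-T 1 to 3). The 10 rises are therefore no further support. Car1 (-1.84) and Slc26a3 (-1.76) kept about the same log2 change in that fit but were not called (adjusted p = 0.0665 and 0.0564). Krt20, a keratin of mature surface cells, ranged from 89.1 to 1132 CPM in BTPRZ-T, against 136 to 237 CPM in BT-T, and did not pass (adjusted p = 0.105).

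Hormone genes of enteroendocrine cells gave 4 rises and 1 fall among 21 tested, with a median of 0.06. Cck, the cholecystokinin gene, stood at 0.980, 1.5, 1.44 and 0.390 CPM in BT-T and at 8.73, 4.84, 22.4 and 23 CPM in BTPRZ-T, a rise of 3.76 ± 0.62 (adjusted p = 0.0144). Tac1, the substance P gene, rose by 1.18 ± 0.23, the granule protein Chgb by 1.46 ± 0.35 and Tph1, which makes serotonin in enterochromaffin cells, by 1.78 ± 0.45. Gcg, the glucagon-like peptide gene of L cells, stood at 54.3, 37.7, 18.6 and 31.3 CPM in BT-T and at 12.8, 14.5, 4.73 and 10.4 CPM in BTPRZ-T, and it fell by 1.74 ± 0.40. Among 13 tuft cell genes, Cd24a rose by 0.87 ± 0.18 and the prostaglandin enzymes Ptgs1 and Hpgds fell by 0.93 ± 0.25 and 1.38 ± 0.37; none of the 3 is restricted to tuft cells.

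General epithelial genes gave 2 rises and 1 fall among 19 tested, with a median of 0.20, and their summed level ran from 12620 to 14270 CPM in BT-T, against 10220 to 20280 CPM in BTPRZ-T. Epcam, the epithelial adhesion molecule, stood at 1296, 1046, 1220 and 1085 CPM in BT-T and at 2122, 1933, 2489 and 1169 CPM in BTPRZ-T (difference 0.73 ± 0.24, adjusted p = 0.0811), with BTPRZ-T 4 among the BT-T values. The keratin Krt18 rose by 0.83 ± 0.22 and the tetraspanin Tspan8 by 0.90 ± 0.20, and the claudin Cldn4 fell by 0.82 ± 0.18. Cdx2, the transcription factor of intestinal identity, stood at 59.2, 69.7, 90.6 and 104 CPM in BT-T and at 121, 187, 213 and 129 CPM in BTPRZ-T, a rise of 1.01 ± 0.25 (adjusted p = 0.0368). Hoxd13 fell by 1.04 ± 0.23, and no other of the 22 transcription factors of gut identity was called (9.09%, against 10.8% of all genes tested). Of 12 squamous and basal keratins, Krt23 rose by 1.78 ± 0.35 and Krt80 fell by 1.37 ± 0.37.

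Of the 28 genes tested from the fetal-like and YAP-linked regeneration list, 2 rose and 4 fell, with a median of -0.19. The genes that rose were the surface antigens Ly6e (1.2 ± 0.26) and Ly6a (0.86 ± 0.24), the latter not called with the length trend removed (adjusted p = 0.655). The genes that fell were the YAP regulators Amotl2 (-1.1 ± 0.19) and Lats2 (-1.32 ± 0.24), the YAP paralogue Wwtr1 (-1.17 ± 0.28) and endothelin Edn1 (-1.38 ± 0.35). Clu, which marks regenerating crypt cells, stood at 904, 462, 1970 and 274 CPM in BT-T and at 3467, 2818, 3506 and 2664 CPM in BTPRZ-T; its groups did not overlap and its adjusted p was 0.0602.

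**Figure D3:**
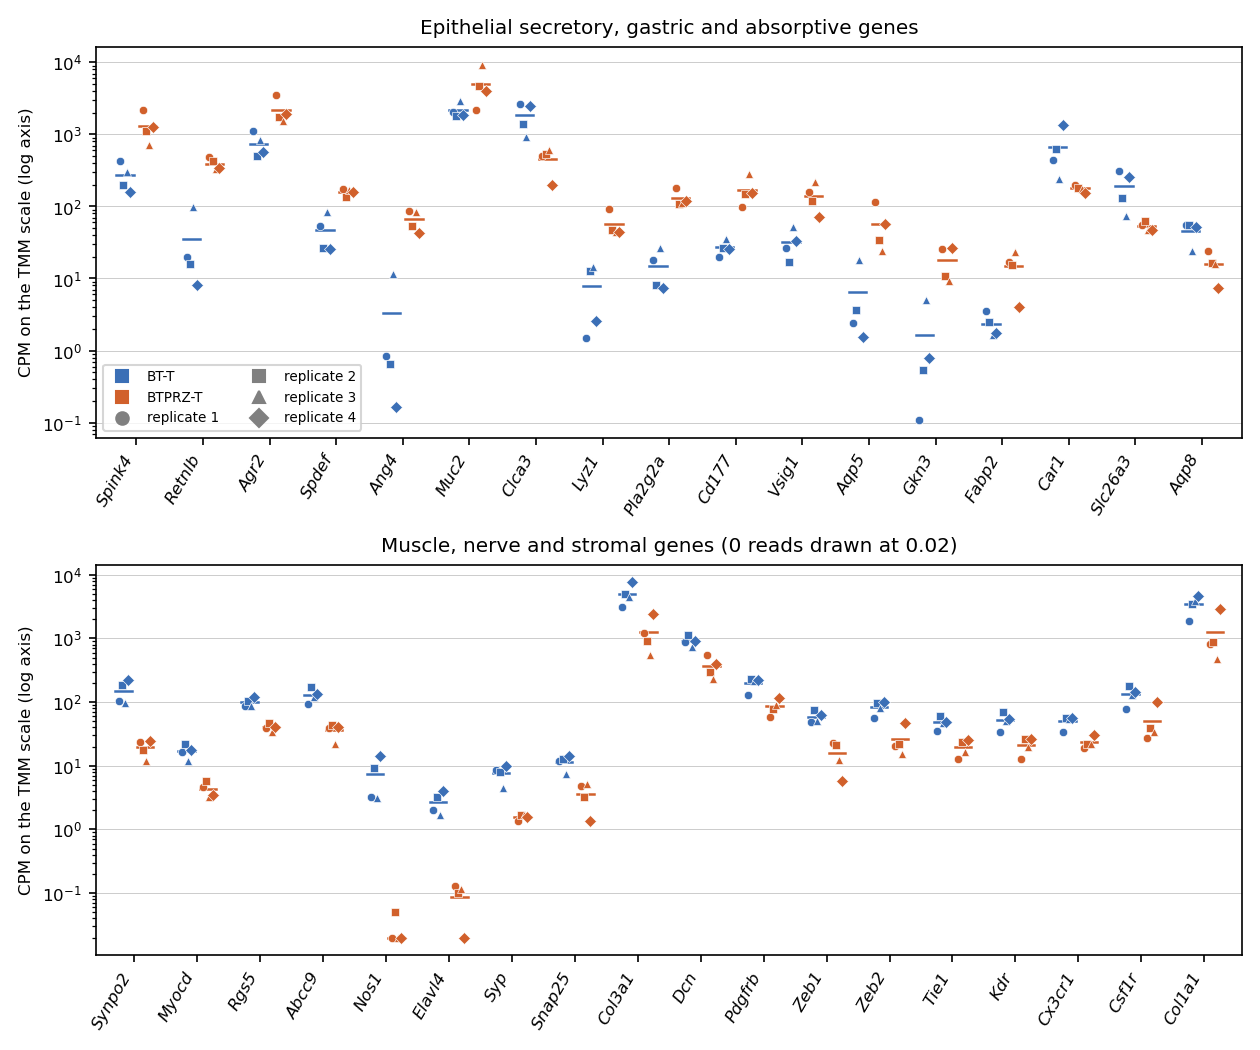
Levels of epithelial genes (upper panel) and of muscle, nerve, stromal, endothelial and macrophage genes (lower panel) in each of the 8 tumour libraries, in CPM on a log axis; colour gives the group, marker shape the replicate and the bar the group mean. Secretory and gastric genes such as Spink4, Retnlb and Vsig1 lie higher in all 4 BTPRZ-T libraries, Car1 and Slc26a3 lie lower, and muscle and nerve genes such as Synpo2, Nos1 and Syp lie lower in all 4.

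Many smooth muscle and pericyte genes fell in BTPRZ-T. Of 21 tested 12 fell and none rose, all 21 had a negative fitted change and the median was -1.31. Synpo2 (chr3:123076519-123236149), an actin-binding protein of smooth muscle, stood at 105, 186, 96.2 and 220 CPM in BT-T and at 23.5, 17.5, 12.1 and 24.6 CPM in BTPRZ-T, and it fell by 2.97 ± 0.34 (adjusted p = 0.00620). Myh11, the smooth muscle myosin heavy chain, stood at 684, 1301, 637 and 1430 CPM in BT-T and at 138, 133, 71.5 and 331 CPM in BTPRZ-T, and it fell by 2.59 ± 0.49. Both genes' groups lay apart. The coactivator Myocd, which switches on the smooth muscle programme, fell by 1.99 ± 0.29 and Lmod1, an actin nucleator, by 2.09 ± 0.37. The pericyte genes Rgs5 and Abcc9 fell by 1.31 ± 0.17 and 1.82 ± 0.27. Acta2, the actin of smooth muscle and myofibroblasts, stood at 937 to 1609 CPM in BT-T, against 764, 416, 176 and 1058 CPM in BTPRZ-T, and was not called (adjusted p = 0.142). Once the length trend was removed, 7 of the 21 were called lower, and without BTPRZ-T 1 and 4, 19 were. The summed level of BTPRZ-T 4 (5786 CPM) lay inside the BT-T range of 5066 to 8253 CPM, and the other 3 held 800.5 to 3859 CPM. The 19 calls came from a fit without BTPRZ-T 4 and are no further support.

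Of 18 enteric neuron and glia genes, 4 fell and none rose, with a median of -1.92. Besides Nos1, Syp, the synaptophysin of synaptic vesicles, stood at 8.53, 7.89, 4.47 and 10.1 CPM in BT-T and at 1.37, 1.70, 1.67 and 1.55 CPM in BTPRZ-T, and it fell by 2.29 ± 0.38 (adjusted p = 0.0144). The neuronal RNA-binding protein Elavl4 fell by 4.93 ± 0.90 and Snap25, a protein of vesicle fusion, by 1.69 ± 0.43. Elavl4 stood at 2.03, 3.22, 1.71 and 3.95 CPM in BT-T and at most at 0.13 CPM in BTPRZ-T. Normal colon held 10.9 to 16.7 CPM of Syp. The summed level of the 18 genes was 399 to 564 CPM in BT-T, against 259 to 456 CPM in BTPRZ-T. Without BTPRZ-T 1 and 4, 14 of the 18 genes were called lower, and with the length trend removed 3 were. BTPRZ-T 1 and 4 were nearest to BT-T by list median (-1.36 and -1.70), so the 14 calls are no further support.

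Fibroblast and matrix genes were lower in 3 of the 4 BTPRZ-T libraries, and BTPRZ-T 4 stood nearer to BT-T. The summed level of the fibroblast genes was 16460 to 29810 CPM in BT-T, 4104 to 8138 CPM in BTPRZ-T 1 to 3 and 18010 CPM in BTPRZ-T 4. Of 24 fibroblast genes 9 fell and none rose (median -1.38), and of 30 collagen chains 8 fell and none rose (median -1.26). Col3a1 stood at 3162, 4986, 4541 and 7570 CPM in BT-T and at 1205, 903, 553 and 2408 CPM in BTPRZ-T, and it fell by 2.00 ± 0.46 (adjusted p = 0.0300). Dcn, the proteoglycan decorin, stood at 872, 1121, 730 and 914 CPM in BT-T and at 555, 301, 230 and 400 CPM in BTPRZ-T, and it fell by 1.29 ± 0.28. The receptors Pdgfrb and Pdgfra fell by 1.21 ± 0.26 and 1.29 ± 0.31, and Col6a1 and Col6a3 by 1.37 ± 0.30 and 1.46 ± 0.28. Col1a1, the main fibrillar collagen, stood at 1900, 3512, 3841 and 4578 CPM in BT-T and at 827, 876, 474 and 2880 CPM in BTPRZ-T. BTPRZ-T 4 lay inside the BT-T range, and the Col1a1 difference of -1.45 ± 0.54 did not pass (adjusted p = 0.107). Without BTPRZ-T 1 and 4, 20 of the 24 fibroblast genes and 20 of the 30 collagen chains were called lower and 1 collagen chain higher. BTPRZ-T 4 was the library nearest to BT-T here, so leaving it out favours falls and the larger counts are no further support. With the length trend removed, 3 fibroblast genes and 1 collagen chain were called lower, and Col3a1, Dcn and Col6a3 were not called (adjusted p = 0.0719 to 0.132).

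Other stromal lists gave falls and no rise. Of 15 cartilage-like matrix genes 4 fell, with the leucine-rich proteoglycan Ogn at 117, 80.7, 58.4 and 102 CPM in BT-T and 27.4, 21.3, 21.3 and 31.0 CPM in BTPRZ-T (log2 fold change -1.83 ± 0.24, adjusted p = 0.00755) and aggrecan, Acan, which fell by 2.4 ± 0.47. Of 30 matrix remodelling enzymes 5 fell, among them Mmp11 by 1.42 ± 0.26 and Adam19 by 1.22 ± 0.28, while the summed level of the 30 overlapped between the groups (3191 to 5013 CPM in BT-T, 2887 to 6338 CPM in BTPRZ-T). Of 22 genes of epithelial-mesenchymal transition 5 fell and none rose, with a median of -0.95: the transcription factors Zeb1 and Zeb2, the integrin chain Itgb3, the proteoglycan Spock1 and the mesenchymal cadherin Cdh11. Zeb1 stood at 48.7, 74.2, 51.1 and 61.7 CPM in BT-T and at 23.1, 21.3, 12.4 and 5.81 CPM in BTPRZ-T, and it fell by 1.92 ± 0.39. Zeb1, Zeb2 and Cdh11 were not called with the length trend removed (adjusted p = 0.0650 to 0.151). Of 20 endothelial genes, Tie1, Tek, Kdr and Prox1 fell, with a median of -0.89; Kdr, the VEGF receptor, stood at 34.1, 68.7, 51.0 and 54.8 CPM in BT-T and at 12.9, 26.6, 20.01 and 26.6 CPM in BTPRZ-T (log2 fold change -1.27 ± 0.28). Pecam1 stood at 88.7 to 156 CPM and 52.6 to 115 CPM and did not pass (adjusted p = 0.114).

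Lymphoid cells are missing from NSG mice. Of 19 lymphoid genes in the files 8 had no read and 4 were tested, with none called. Among 22 macrophage and monocyte genes 1 fell (4.55%, against 5.63% of all genes tested), with a median of -0.42. Cx3cr1, a chemokine receptor of tissue macrophages, stood at 34.5, 55.5, 54.8 and 55.3 CPM in BT-T and at 18.8, 21.9, 21.9 and 30.9 CPM in BTPRZ-T, and it fell by 1.1 ± 0.22 (adjusted p = 0.0229). Csf1r, the receptor of macrophage growth, stood at 77.1, 179, 129 and 146 CPM in BT-T and at 27.8, 39.0, 34.0 and 102 CPM in BTPRZ-T (adjusted p = 0.0661). The summed macrophage level of BTPRZ-T 4, 4839 CPM, was above every BT-T library (1609 to 3043 CPM), while the other 3 BTPRZ-T libraries held 538 to 1519 CPM. Without BTPRZ-T 1 and 4, 15 of the 22 genes were called lower. That fit drops the library with the high sum, so the larger count is no further support for a fall. The neutrophil gene S100a8 stood at 1.11 to 7.62 CPM and 0.980 to 9.84 CPM (adjusted p = 0.802).

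Among 33 interleukins and chemokines 1 rose and 3 fell (12.1% called, near the 10.8% of all genes tested). Cxcl12, the stromal chemokine that binds CXCR4, stood at 84.8, 141, 60.8 and 111 CPM in BT-T and at 20.1, 23.1, 19.2 and 56.3 CPM in BTPRZ-T, and it fell by 1.74 ± 0.40. The mucosal chemokine Ccl28 fell by 1.31 ± 0.32, the macrophage growth factor Csf1 by 1.1 ± 0.27, and the epithelial chemokine Ccl20 rose by 2.88 ± 0.79 from at most 0.944 CPM. None of the 4 was called with the length trend removed. Of 34 interferon response genes 2 rose (5.88%, near the 5.18% of all genes tested). Of the 34, 30 had a positive fitted change, with a median of 0.59. Ifit3 stood at 8.68, 5.10, 9.65 and 12.4 CPM in BT-T and at 22.9, 40.1, 44.2 and 33.7 CPM in BTPRZ-T, a rise of 1.98 ± 0.31 (adjusted p = 0.0123), and it was called in each of the 8 fits that left out 1 library. Bst2, or tetherin, rose by 0.93 ± 0.24 and was not called with the length trend removed (adjusted p = 0.618). Without BTPRZ-T 1 and 4, 13 interferon response genes were called higher, in a fit that called 1352 of all 14975 genes higher. BTPRZ-T 1 and 4 were nearest to BT-T by list median (0.127 and 0.083, against 0.626 and 0.87 in BTPRZ-T 2 and 3). The 13 calls are therefore no further support. BT-T 4 had a list median of 0.531.

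Of 18 antigen presentation genes tested, 2 rose, 4 fell and 12 were not called, with a median of 0.03. The MHC class II genes H2-Ab1, H2-Aa, H2-Eb1 and the invariant chain Cd74 fell, and the class I genes H2-K1 and H2-T23 rose. H2-Aa stood at 58.9, 79.2, 57.2 and 57.6 CPM in BT-T and at 26.6, 30.2, 29.3 and 33.7 CPM in BTPRZ-T, and it fell by 1.08 ± 0.17 (adjusted p = 0.0122). Cd74 fell by 1.23 ± 0.22 and H2-Ab1 by 1.17 ± 0.18. H2-T23, the Qa-1 molecule, stood at 21.9, 29.5, 30.5 and 34.7 CPM in BT-T and at 61.4, 78.7, 104 and 45.3 CPM in BTPRZ-T, a rise of 1.31 ± 0.26 (adjusted p = 0.0224). H2-K1 rose by 0.88 ± 0.21 from 141 to 245 CPM in BT-T to 288 to 416 CPM in BTPRZ-T. The 4 class II falls and H2-T23 were also called with the length trend removed, and H2-K1 was not (adjusted p = 0.123). Class I sequences of this locus are alike, and the counts hold uniquely placed reads.

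**Figure D4:**
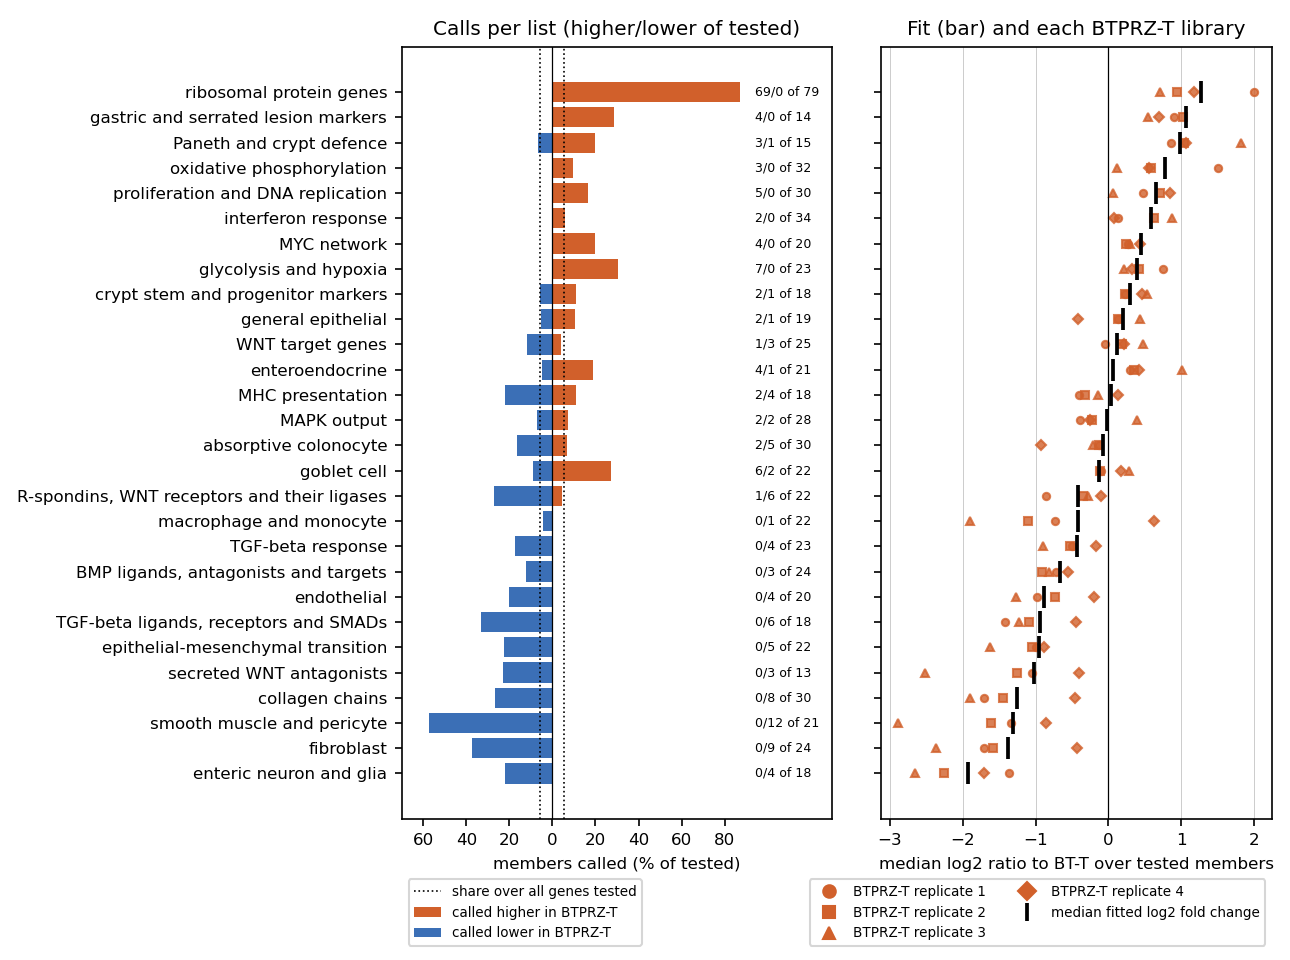
Left, percent of tested members called higher (orange, to the right) or lower (blue, to the left) in BTPRZ-T for 28 gene lists, with the counts printed and dotted lines at the shares over all genes tested (5.18% higher, 5.63% lower). Right, median fitted log2 fold change of each list (black bar) and the median log2 ratio of each BTPRZ-T library to the BT-T mean (orange markers, shape by replicate); muscle, nerve and stromal lists lie lowest, ribosomal protein genes highest, and BTPRZ-T 4 lies closest to BT-T in fibroblast, collagen and macrophage genes.

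Glycolysis and hypoxia genes gave 7 rises and no fall among 23 tested, with a median of 0.39. Car9, the hypoxia-induced carbonic anhydrase (chr4:43506966-43513729), stood at 31.9, 39.6, 55.5 and 30.8 CPM in BT-T and at 141, 149, 202 and 81.2 CPM in BTPRZ-T, a rise of 1.86 ± 0.30 (adjusted p = 0.0137). Egln3, the prolyl hydroxylase that marks HIF for destruction and is itself a HIF target, stood at 64.5, 70.0, 134 and 90.8 CPM in BT-T and at 233, 254, 308 and 240 CPM in BTPRZ-T, a rise of 1.52 ± 0.25 (adjusted p = 0.0137). The groups of both genes lay apart. Pgk1, a glycolytic kinase, rose by 1.37 ± 0.26, Ankrd37 by 1.31 ± 0.29, the mitophagy receptor Bnip3 by 1.77 ± 0.46, Gapdh by 0.67 ± 0.17 and the endoplasmic oxidase Ero1l by 0.63 ± 0.15. After removal of the length trend, 5 of the 23 were called higher, and Ankrd37 and Bnip3 were not (adjusted p = 0.158 and 0.0536). Without BTPRZ-T 1 and 4, 9 were called higher and 2 lower.

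Hypoxia-inducible factors bind DNA at the core ACGTG or GCGTG. Only ACGTG was searched, and GCGTG is neither marked nor counted. The promoters of the 4 list members with the lowest p are shown with each ACGTG, on either strand, in capitals. The sequences are the 250 bases before each gene's RefSeq start, 5′ to 3′ on the gene's strand, on GRCm38.p6. RefSeq and GENCODE starts can differ, and the GENCODE start of Car9 given above lies inside its window. Car9 is at chr4:43506776-43507025 on the plus strand, Egln3 at chr12:54203875-54204124 on the minus strand, Pgk1 at chrX:106186850-106187099 on the plus strand and Ankrd37 at chr8:45999851-46000100 on the minus strand.
Car9: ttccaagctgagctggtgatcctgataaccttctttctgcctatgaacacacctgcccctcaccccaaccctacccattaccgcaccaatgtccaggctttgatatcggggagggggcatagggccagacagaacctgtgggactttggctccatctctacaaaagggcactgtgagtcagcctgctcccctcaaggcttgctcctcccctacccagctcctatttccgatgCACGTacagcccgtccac
Egln3: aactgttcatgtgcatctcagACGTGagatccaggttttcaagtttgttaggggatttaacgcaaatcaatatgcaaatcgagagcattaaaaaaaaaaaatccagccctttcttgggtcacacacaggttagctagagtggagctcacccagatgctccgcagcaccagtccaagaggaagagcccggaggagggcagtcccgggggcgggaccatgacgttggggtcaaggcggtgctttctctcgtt
Pgk1: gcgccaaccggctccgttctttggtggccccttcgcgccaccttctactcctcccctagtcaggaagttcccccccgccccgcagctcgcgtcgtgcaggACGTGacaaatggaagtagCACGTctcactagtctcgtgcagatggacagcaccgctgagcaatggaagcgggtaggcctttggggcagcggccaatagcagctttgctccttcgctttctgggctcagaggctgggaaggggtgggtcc
Ankrd37: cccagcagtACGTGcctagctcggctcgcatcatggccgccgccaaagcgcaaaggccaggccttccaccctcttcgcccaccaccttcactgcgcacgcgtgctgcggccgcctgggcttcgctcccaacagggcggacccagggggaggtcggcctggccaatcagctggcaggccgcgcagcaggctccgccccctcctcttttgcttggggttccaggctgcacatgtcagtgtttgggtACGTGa
The Car9 window holds 1 match, 18 bases before the RefSeq start but after the GENCODE start. The Egln3 window holds 1 match, 229 bases before its RefSeq start. Pgk1 holds 2, at 150 and 131 bases, and Ankrd37 holds 2, at 241 and 6 bases. Of the 7 genes that rose, 6 had a promoter in the RefSeq table (Ero1l did not) and 5 of those 6 held the motif, Gapdh being the one that did not. Among the 15 list members with a promoter that were not called, 9 held it, a gene counting where any of its promoters did. Over all 32851 promoters of this length, counted singly and not by gene, 5444 (16.6%) did. The motif was common to the list whether or not a gene rose, and a match is a description of letters and not evidence of binding.

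The MYC network gave 4 rises and no fall among 20 tested, with a median of 0.45. Pvt1, the non-coding neighbour of Myc, stood at 3.09, 2.95, 3.97 and 2.95 CPM in BT-T and at 10.2, 11.9, 7.56 and 23.4 CPM in BTPRZ-T, a rise of 2.03 ± 0.38 (adjusted p = 0.0197). Npm1, the nucleolar chaperone, rose by 1.06 ± 0.22, Odc1, the polyamine enzyme, by 0.79 ± 0.18 and Nop56, of the ribosomal RNA methylation complex, by 0.91 ± 0.21. All 4 were also called with the length trend removed. Myc itself stood at 115 to 132 CPM in BT-T, against 118 to 213 CPM in BTPRZ-T, and its difference of 0.46 ± 0.19 did not pass (adjusted p = 0.140). Among 17 heat shock and unfolded protein response genes, Asns rose by 0.88 ± 0.17 and Sdf2l1 by 1.2 ± 0.27 (11.8% called, near the 10.8% of all genes tested).

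Ribosomal protein genes gave the highest share of calls of any list: 69 of 79 rose and none fell, with a median of 1.27. Rps18 stood at 152, 133, 162 and 117 CPM in BT-T and at 1337, 556, 447 and 575 CPM in BTPRZ-T, a rise of 2.37 ± 0.35 (adjusted p = 0.0108), and Rplp1 rose by 1.57 ± 0.23. These transcripts are short, and BTPRZ-T 1, the library with the lowest length slope, had the highest list median (2.00, against 0.71 to 1.17 in the other 3). With the length trend removed, 48 rose and the median was 0.72. Rps18 was then still called (1.75) and Rplp1 was not (adjusted p = 0.0746). Without BTPRZ-T 1 and 4, 70 rose, with a median of 0.86. None was called in a fit of all 12 libraries (median 1.33) or with a term for Y-linked transcripts (median 1.09). Oxidative phosphorylation subunits, also short, gave 3 rises among 32 tested (Ndufa2, Uqcrh and Uqcr11, by 1.33 to 1.56), with a median of 0.77. In the fit without the length trend, none of the 32 was called and the median was 0.04. Ribosomal protein transcripts made up 1.59% to 11% of gene reads in normal colon, a range that spans both tumour groups.

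Metabolic and detoxification genes moved in both directions. Of 25 fatty acid oxidation genes, the isomerase Eci1 rose by 0.86 ± 0.19, the nuclear receptor Ppara fell by 1.26 ± 0.30 and its target Pdk4 fell by 2.09 ± 0.54. The share called, 12%, was near the 10.8% of all genes tested. Of 30 drug and xenobiotic metabolism genes 3 rose and 6 fell. The carboxylesterase Ces1d stood at 19.8, 28.8, 8.48 and 23.9 CPM in BT-T and at 2.15, 5.99, 5.08 and 4.02 CPM in BTPRZ-T, and it fell by 2.23 ± 0.43 (adjusted p = 0.0212), and Ces1g fell by 2.03 ± 0.43. The epoxide hydrolase Ephx1 rose by 1.03 ± 0.21 and the glutathione transferase Gsta4 by 1.04 ± 0.24. With the length trend removed, 7 of the 30 fell and none rose, and without BTPRZ-T 1 and 4, 9 rose and 7 fell. BTPRZ-T 1 and 4 had the lowest list medians (-0.498 and -0.932, against -0.329 and 0.127), so the 9 rises are no further support. None of 9 mismatch repair genes with Mgmt was called.

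Which genes were called depended on single libraries. Without BT-T 2, 77 genes were called and without BT-T 4, 95, whereas without BTPRZ-T 4, 3008 were. Of 191 called genes followed through every setting, 162 lost the call without BT-T 2, 157 without BT-T 4, 122 without BTPRZ-T 2, 90 without BT-T 1, 85 without BT-T 3, 52 without BTPRZ-T 1, 14 without BTPRZ-T 3 and 4 without BTPRZ-T 4. In these 8 fits the highest adjusted p that any of the 191 reached was 0.176. No gene was called in opposite directions under any setting. Over all genes, 75 were called with all 8 libraries and in each of the 8 fits that left out 1, and of these 11 were higher and 64 lower in BTPRZ-T. Of the 191, 29 kept the call in all 8 fits that left out 1 library. Removal of the length trend kept 122 of the 191, and leaving out BTPRZ-T 1 and 4 kept 175. A fit of all 12 libraries, normal colon included, kept 30 of the 191. No ribosomal protein gene, fibroblast gene or collagen chain was called in the fit of all 12. Besides the genes whose loss is given with their groups, further calls ended with the length trend removed, and their changes shrank by unequal amounts. Among pathway genes, Frzb (-1.45), Nkd1 (-1.69), Nkd2 (-1.41) and Wnt4 (-1.55) kept most of the log2 change that all 8 libraries gave without that step. Prox1 went from -2.59 to -2.09, Phlda1 from 0.94 to 0.74, Postn from -1.52 to -1.13, Rgmb from -0.85 to -0.48, Jag1 from -0.93 to -0.56, Pcna from 0.83 to 0.43 and Bax from 1.06 to 0.51. Among cell type genes, Lyz1 (2.32), Mep1a (-1.29), Cdx2 (0.88), Krt80 (-1.2), Hpgds (-1.23) and Snap25 (-1.39) kept most of theirs. Dpp4 (-1.25), Wwtr1 (-0.88), Abcc9 (-1.2), Tek (-1.17) and Kdr (-0.88) shrank more, and Adam19 (-0.75), Krt18 (0.49) and Tspan8 (0.49) more again. Among the rest, Trim9 (-4.13) and Pdk4 (-2.01) hardly moved, Ephx1 (0.73) and Rpl29 (1.13) shrank, and Fosl2 (-0.31), Sdf2l1 (0.58), Gsta4 (0.43) and Eci1 (0.31) shrank most in proportion. When BTPRZ-T 1 and 4 were left out, the calls of Nkd2 (-1.75), Gcg (-1.82), Capn9 (-0.84), Itln1 (2.52) and Ly6a (0.76) ended at about the same log2 change, and those of Spry2 (-0.56), Fosl2 (-0.47), Ccl20 (1.68) and Bst2 (0.5) at a smaller one. A term for the presence of Y-linked transcripts left 39 genes called, 3 higher and 36 lower. That term marks BT-T 2, 3 and 4 and BTPRZ-T 2, so it partly overlaps with group. The lost calls therefore cannot be assigned to Y-linked differences.

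The 75 genes included several that no list held, named here after their values were seen. Aldh1a3, which makes retinoic acid, stood at 673, 969, 878 and 883 CPM in BT-T and at 182, 147, 182 and 85.6 CPM in BTPRZ-T, and it fell by 2.51 ± 0.27 (adjusted p = 0.00518). Fbxo32, or atrogin-1, a ubiquitin ligase of muscle, stood at 192, 141, 157 and 187 CPM in BT-T and at 47.4, 55.8, 59.3 and 53.1 CPM in BTPRZ-T, and it fell by 1.65 ± 0.16. Lpcat2, an enzyme of platelet-activating factor synthesis, stood at 36.5, 48.0, 33.2 and 37.2 CPM in BT-T and at 10.6, 10.9, 9.52 and 11.8 CPM in BTPRZ-T, and it fell by 1.86 ± 0.18. The 4 libraries of each group sat close together in Fbxo32 and Lpcat2, with a wide gap between the groups. The guidance molecule Sema5a fell by 2.2 ± 0.22, the forkhead factor Foxp2 by 2.96 ± 0.34, the collagen receptor Ddr2 by 2.14 ± 0.25, the matrix protein Thbs4 by 1.86 ± 0.23, Itih5 by 2.00 ± 0.24 and the potassium channel Kcnma1 by 1.37 ± 0.16. Kcnma1 was not called with the length trend removed (adjusted p = 0.210).

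Of the 11 that rose in every one of these fits, Cd177, Pla2g2a and Ifit3 are described with their groups. Hoxb6, a homeobox gene of the posterior body, stood at 12.7, 14.7, 21.8 and 15.3 CPM in BT-T and at 57.4, 44.1, 70.5 and 51.5 CPM in BTPRZ-T, a rise of 1.79 ± 0.22 (adjusted p = 0.00720). Car8, a carbonic anhydrase-related protein, stood at 23, 30.2, 58.1 and 34.7 CPM in BT-T and at 149, 125, 177 and 139 CPM in BTPRZ-T, a rise of 2.01 ± 0.28. Soat2, the cholesterol acyltransferase of intestine and liver, stood at 1.16, 1.72, 1.49 and 0.835 CPM in BT-T and at 7.82, 6.39, 13.5 and 7.27 CPM in BTPRZ-T, a rise of 2.74 ± 0.42. The groups did not overlap in any of these 3 genes. Cox7a2l, a factor of respiratory supercomplexes, rose by 1.22 ± 0.16, Chn2 by 1.25 ± 0.17, Exoc3l4 by 1.86 ± 0.27 and the ribosomal protein gene Rpl29 by 1.8 ± 0.24.

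**Figure D5:**
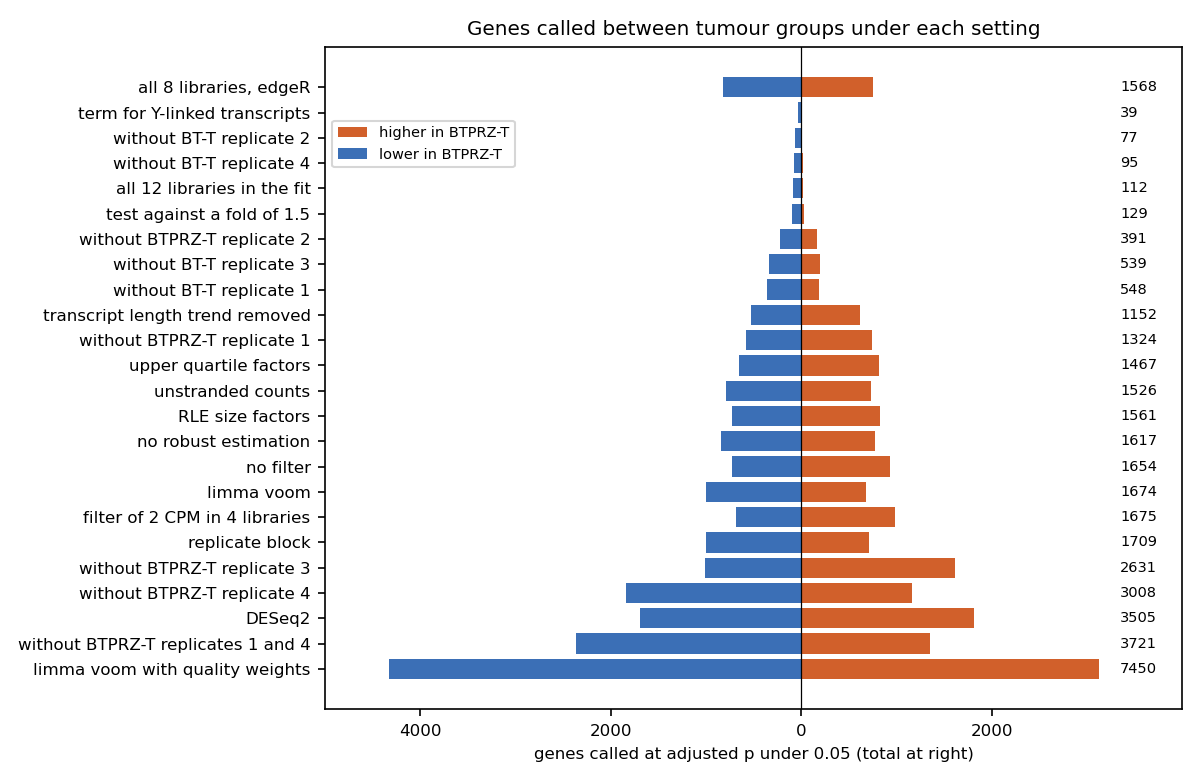
Number of genes called at an adjusted p under 0.05 under each setting, higher in BTPRZ-T to the right (orange) and lower to the left (blue), with the total printed. The 8 libraries in edgeR gave 1568 calls, leaving out BT-T 2 or BT-T 4 gave 77 and 95, and leaving out BTPRZ-T 1 and 4 together gave 3721.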

How the data were processed

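RNA of mouse colon tumours and normal colon was read from stranded poly(A) libraries, with 100-base single-end reads per the labels' protocols. The authors deposited a table per library of raw read counts by gene, in 3 columns (unstranded and both strands), and the column of the library's own strand was used. The submitters' processing notes name bcl2fastq 2.20, STAR 2.4.2a, HTSeq, edgeR 3.16.5, limma and the build mm10, without their roles; which annotation was counted is not stated in them. Lines that name no gene were dropped, and the multimapping line was 0 in every file, so counts hold uniquely placed reads. Each tumour library held 15732004 to 26052772 gene reads.

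The 4 BTPRZ-T and 4 BT-T libraries were fitted alone with edgeR 4.0.16 in R 4.3.3 (filterByExpr, TMM, robust quasi-likelihood test), with Benjamini-Hochberg adjustment over 14512 genes and a threshold of 0.05. CPM are on the TMM scale. DESeq2 1.42.0 and limma 3.58.1 were alternatives, and the code was tested on simulated data. Lengths and positions came from the GRCm38 annotation. In the length alternative each library's trend of level on transcript length was removed as an offset. Counting intervals for genes with at most 3 reads in a group cover counting error only.

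Genes were named as the 12 largest rises and falls without overlap (at least 5 CPM on average where higher), up to 4 members of each list with the lowest p, the edited genes and 20 markers. Further list members, Mmp7 and Wnt10a were named after their values were seen. Members and lists were chosen with earlier results of these data known. Replicate numbers do not pair the libraries by the labels: deviations of same-numbered libraries correlated at 0.305, 0.0874, 0.101 and 0.0987.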

Additional observations from a re-analysis of the deposited data

Results flagged for a closer look

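In 41 of the 442 groups of 4 libraries examined (9.28%), 1 library stood apart from the other 3 by Dixon's criterion (the gap to the nearest library over the range), which chance gives in about 1 of 20 groups. BT-T 3 accounted for 14, BTPRZ-T 1 for 8, BTPRZ-T 4 for 7, BT-T 1 for 4, BTPRZ-T 2 for 3, BT-T 2 and BT-T 4 for 2 each and BTPRZ-T 3 for 1.

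BT-T 3 stood above the other BT-T libraries in genes that were higher in BTPRZ-T. It held 3.61 CPM of Ido1 (others 0.161 to 0.445), 11.6 of Ang4, 15.7 of Lgals2, 5.50 of Chit1, 98.1 of Retnlb, 5.05 of Gkn3 and 18.2 of Aqp5. It also held 4.29 CPM of Gkn1 (others at most 0.223), 337 of Mmp7 (others 2.42 to 5.96), 3.97 of Pvt1 and 1.22 of Wnt10a. It stood below the others in Mptx1 (18.5 CPM), Aqp8 (24.0 CPM) and Pdk4 (3.02 CPM). BT-T 1 was low in Pdgfrb (129 CPM, others 216 to 231), Cx3cr1 (34.5 CPM) and Hpgds (10.6 CPM) and high in Bst2 (20.7 CPM). BT-T 2 was high in Wwtr1 (115 CPM) and H2-Aa (79.2 CPM), and BT-T 4 was high in Lgr4 (273.7 CPM) and low in Rplp1 (588 CPM).

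BTPRZ-T 1 stood above the other BTPRZ-T libraries in Pla2g2a (183 CPM), Tac1 (41.9 CPM), Lyz1 (90.9 CPM), Gkn1 (66.8 CPM), Uqcrh (579 CPM), Uqcr11 (240.4 CPM) and Rps18 (1337 CPM), and below them in Ski (65.7 CPM). BTPRZ-T 4 stood above in Col1a1 (2880 CPM, others 474 to 876), Csf1r (102 CPM), Col6a1 (271 CPM), Cxcl12 (56.3 CPM), H2-Eb1 (49.5 CPM) and Fzd7 (27.2 CPM) and below in Cdkn1a (199 CPM). BTPRZ-T 2 held 13.3 CPM of Ddx3y, 0.0499 CPM of Nos1 and 0.15 CPM of Sfrp5, the last 2 genes having no read in the other 3. BTPRZ-T 3 was high in Smoc2 (394 CPM).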

How the results depend on the processing

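The count of 1568 genes (751 higher, 817 lower) moved with the test and the libraries. DESeq2 called 3505, limma voom with quality weights 7450, the fit of all 12 libraries 112, a test against a fold of 1.5 129, a term for Y-linked transcripts 39 and the fit without BTPRZ-T 1 and 4 3721. Leaving out 1 library gave 77 (without BT-T 2) to 3008 (without BTPRZ-T 4). Both other size factors, both other filters on low counts, voom, unstranded counts, no robust estimation and removal of the length trend gave 1152 to 1675. The share of calls that were higher was 47.9%. It was 55.6% with upper quartile factors, 56.3% with no filter, 59.1% with the 2 CPM filter, 36.3% without BTPRZ-T 1 and 4, 21.7% with the fold test, 20.5% with all 12 libraries and 7.69% with the Y term, and 14.3% (without BT-T 2) to 61.6% (without BTPRZ-T 3) with 1 library left out. No gene was called in opposite directions under any of these settings.

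With replicate number as a block 1709 genes were called (714 higher, 995 lower), and of 217 genes followed 20 lost the call and 4 gained it. Every library correlated best with its own number, a hint from the data and not the design.

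The genes whose fitted direction turned were not called under any setting that turned them. The log2 difference of Ascl2 was -0.15 with voom, -0.32 with quality weights, -0.18 with the block, -0.30 without the length trend, -0.11 with the Y term and -0.90 without BTPRZ-T 1 and 4. Leaving out 1 library at a time gave Ascl2 -0.31 to 0.54. Cdkn2b was 0.019 with upper quartile factors, 0.030 with no filter, 0.012 with the 2 CPM filter, 0.25 with quality weights, 0.0054 with all 12 libraries, 0.11 with the Y term, 0.28 without BTPRZ-T 1 and 4, and -0.22 to 0.16 without 1 library. Cdkn1a was 0.0055 with quality weights, 0.038 without BTPRZ-T 1 and 4 and -0.18 to 0.0023 without 1 library. Mki67 was 0.30 without the length trend, 0.083 without BTPRZ-T 1 and 4 and -0.41 to 0.018 without 1 library. S100a8 was -0.37 with quality weights, -0.92 without the length trend, -0.80 without BTPRZ-T 1 and 4 and -0.15 to 0.84 without 1 library. Znrf3 was -0.027 to 0.38 without 1 library, the negative value without BT-T 1. The cause of these changes was not tested.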

Other observations

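Calls were uneven over chromosomes. On chromosome 2, 13 genes were higher and 105 lower of 1082 tested, with a median log2 difference of -0.27, and with the length trend removed 10 were higher and 67 lower, with a median of -0.21. All 4 BTPRZ-T libraries lay below the BT-T mean there, by medians of -0.26, -0.19, -0.23 and -0.19 with the length trend removed. On chromosome 14, 9 were higher and 36 lower of 470, and with the length trend removed 7 were higher and 17 lower. The chromosome 14 falls were then near the share over all genes. On chromosome 19, 45 were higher and 23 lower of 469, with a median of 0.13, and with the length trend removed 46 were higher and 10 lower. Over all 14512 genes tested, 751 were higher and 817 lower, and with the length trend removed 622 were higher and 530 lower. No test of chromosome or copy number was made.

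Of 7 hepatocyte genes tested 3 (42.9%) were called lower, Alb, Tat and Trf, against 5.63% of all genes, and the summed level of the list was 346.7 to 458.1 CPM in BT-T, against 213.6 to 761.7 CPM in BTPRZ-T. None of 9 mesothelial genes (sums of 2944 to 5951 CPM in BTPRZ-T), 3 pancreatic acinar genes (1220 to 4236 CPM), 5 skeletal muscle, 7 mast cell and 4 erythroid and platelet genes was called.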
